A study of Mus musculus with 8 samples.

Results

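The enzymes that make superoxide in the vessel wall and those that remove it were followed in RNA-sequencing of the mouse aorta. They are 9 of the 35896 genes in the count table, taken by their symbols. They comprise the vascular NADPH oxidases Nox1 and Nox4, the phagocyte oxidase genes Cybb, Cyba, Ncf1 and Ncf4, and the superoxide dismutases Sod1, Sod2 and Sod3. NADPH oxidases move electrons from NADPH across a membrane to oxygen and so release superoxide or hydrogen peroxide. Superoxide dismutases convert superoxide to hydrogen peroxide, which catalase, glutathione peroxidases and peroxiredoxins then remove. In arteries, Nox4 is an oxidase of wall cells such as smooth muscle and fibroblasts. The Cybb complex is the main oxidase of macrophages and neutrophils, though not only theirs, and Sod3 is the dismutase secreted into the wall.

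The 8 libraries came from 16 male C57B6/J mice that were 11 weeks old at the start, and each library was made from pieces of aorta pooled from 2 of them before extraction. Mice in the AngII, AngII+2W and AngII+3W groups carried an osmotic minipump that gave angiotensin II (AngII), a hormone that raises blood pressure, at 2.8 mg/kg/day for 2 weeks. Aortas were taken when the infusion ended (AngII) or 2 weeks (AngII+2W) or 3 weeks (AngII+3W) after that, and the CTRL group was made of untreated littermates of matched age, with no time of sacrifice in their labels. Each group had 2 libraries, so every p-value below measures the spread between pools.

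Counts in a library summed to between 18130441 and 21498200, and 3 counts corresponded to 0.140 to 0.165 CPM (counts per 1000000 counts). Markers of smooth muscle (summed level 7413 to 9472 CPM in CTRL) and endothelium (926 to 1243 CPM over all libraries) were present. Heart muscle markers were also present, at 2147 to 4893 CPM in CTRL, 803 to 1353 CPM in AngII and 82.7 to 231 CPM in AngII+2W. Adipocyte markers summed to 2339 to 3273 CPM in CTRL and 3147 to 3856 CPM in AngII. After withdrawal they summed to 1955 to 2019 CPM in AngII+2W and 2673 to 3172 CPM in AngII+3W. The part of heart muscle and fat in the levels of the members was not tested. Replicate 1 of AngII+3W stood apart, with skeletal muscle markers at a sum of 1318 CPM against 73.3 CPM or less in each other library and heart muscle markers at 5596 CPM. Differences of Sod3 and the phagocyte genes that involve AngII+3W and were near the threshold are therefore also given without that library.

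None of the 8 members tested passed an FDR of 0.05 in any of the 6 comparisons. FDR is the Benjamini-Hochberg adjusted p of edgeR's quasi-likelihood test over 17182 genes. The share of all genes that passed was 5.1% in AngII vs CTRL, 0.0% in AngII+2W vs CTRL, 0.285% in AngII+3W vs CTRL, 0.163% in AngII+2W vs AngII, 1.61% in AngII+3W vs AngII and 0.0% in AngII+3W vs AngII+2W. The comparisons share libraries, so they are not independent of each other. With an unadjusted p under 0.05, the number of members was 4 in AngII vs CTRL, 1 in AngII+2W vs CTRL, 1 in AngII+3W vs CTRL, 2 in AngII+2W vs AngII, 5 in AngII+3W vs AngII and 2 in AngII+3W vs AngII+2W. Of all genes tested, 20.2%, 10.7%, 12.5%, 15.0%, 17.8% and 8.83% had such a p in these comparisons, in the same order. DESeq2, run on the same counts, called 3, 0, 1, 1, 4 and 1 members, and 9.27%, 2.17%, 3.42%, 3.99%, 5.52% and 1.26% of the 17182 genes, where a gene to which DESeq2 gave no adjusted p counts as not called. Nox1 was removed by the filter on low counts and is described by its counts.

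**Figure D1:**
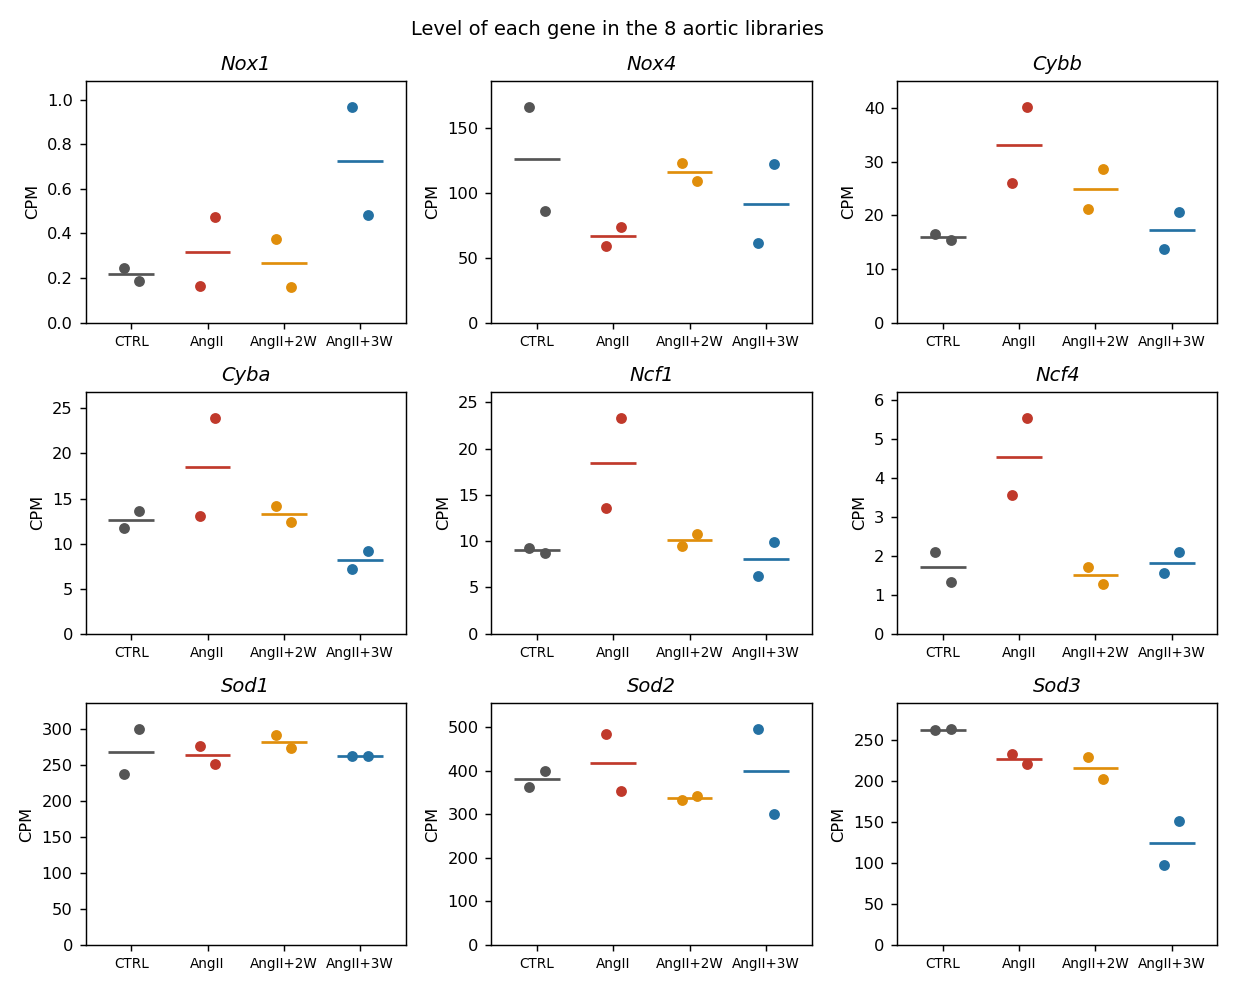
Level of each gene in CPM (y axis, linear and from 0) in every library, by group on the x axis. Points are libraries of 2 pooled mice and lines are group means. Cybb, Ncf1 and Ncf4 lie higher in both AngII libraries than in both CTRL libraries, Sod3 is lowest in the AngII+3W libraries (97.3 and 151 CPM), and Sod1 stays between 237 and 300.2 CPM in all libraries.

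The genes differed widely in abundance. Per kilobase of the principal transcript, Sod1 had the highest level, with group means of 409.8 to 441 CPM per kilobase. Sod2 had group means of 57.6 to 71.3 and Sod3 of 33.2 to 70.3 CPM per kilobase. In AngII the levels of Sod2 (71.3 ± 16.0 CPM per kilobase, SD, n = 2) and Sod3 (60.8 ± 2.33) did not differ beyond their spread. Nox4 had group means of 17.7 to 33.7 CPM per kilobase and was the most abundant of the catalytic subunits Nox1, Nox4 and Cybb in every library. Cyba, which encodes the p22phox subunit that the NOX1, NOX2 and NOX4 enzymes share, had group means of 11.0 to 24.9 CPM per kilobase. Both CTRL libraries had more Nox4 than Cyba per kilobase (33.7 ± 15.1 against 17.03 ± 1.76), while their AngII levels (17.7 ± 2.84 and 24.9 ± 10.3) did not differ beyond their spread. Cybb and Ncf1 lay together at 3.35 ± 0.176 and 3.32 ± 0.144 CPM per kilobase in CTRL, and Ncf4 was lower at 1.17 ± 0.376. Nox1 was lowest, at 0.0842 to 0.283 CPM per kilobase. Since Salmon's estimated counts were divided by 1 transcript length per gene, the order of genes close in level depends on that choice.

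**Figure D2:**
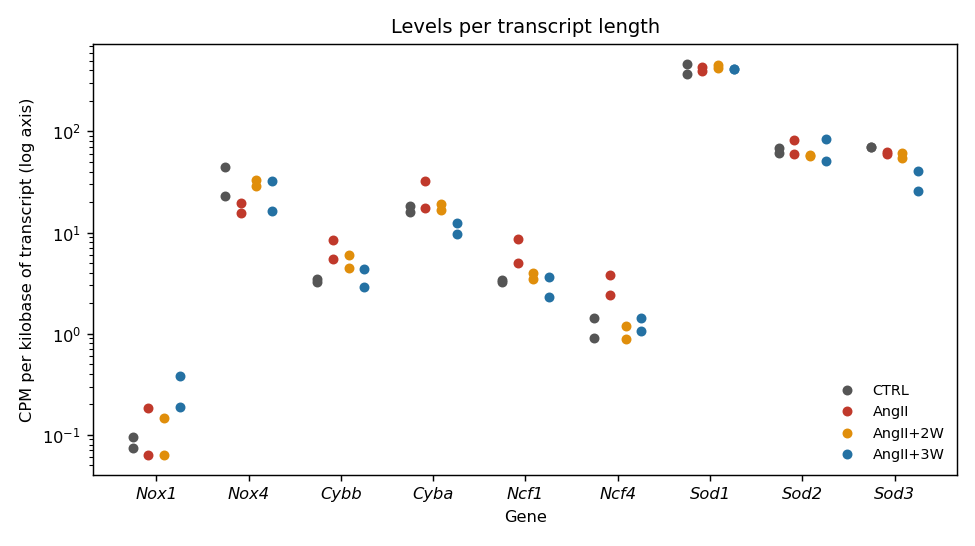
Level per kilobase of the principal transcript (y axis, log scale) for each gene on the x axis. Each point is 1 library, with colours for the 4 groups. The levels run from Nox1 near the floor of detection to Sod1 above 300 CPM per kilobase, and Nox4 lies above Cybb in all 8 libraries.

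Cybb encodes gp91phox (NOX2), the catalytic subunit of the phagocyte oxidase, on chrX:9435252-9487771 (GRCm38, minus strand). Its level was 16.5 and 15.3 CPM in the CTRL libraries, 26.1 and 40.3 CPM at the end of infusion, 21.2 and 28.7 CPM after 2 weeks of withdrawal, and 13.7 and 20.7 CPM after 3 weeks. Both AngII libraries and both AngII+2W libraries were above both CTRL libraries, while the AngII+3W libraries lay on either side of them. The mean in AngII was 2.09-fold that in CTRL (log2 fold change 1.06 ± 0.27, SE, edgeR FDR = 0.0719, 95% interval 0.424 to 1.697). In AngII+2W vs CTRL the log2 fold change was 0.65 ± 0.27 (edgeR FDR = 0.457) and in AngII+3W vs CTRL 0.11 ± 0.28 (FDR = 0.906).

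Ncf1 (p47phox, the organizer subunit that is phosphorylated when the oxidase is switched on) lies on chr5:134220053-134229625 (minus strand). It was measured at 9.31 and 8.75 CPM in the CTRL libraries, 13.6 and 23.3 CPM at the end of infusion, 9.52 and 10.8 CPM after 2 weeks of withdrawal, and 6.24 and 9.94 CPM after 3 weeks. As for Cybb, the AngII and the AngII+2W libraries were above the CTRL libraries, and replicate 2 of AngII was the highest of all 8. The log2 fold change was 1.03 ± 0.30 in AngII vs CTRL (edgeR FDR = 0.0968) and 0.17 ± 0.30 in AngII+2W vs CTRL (FDR = 0.898). Ncf4 (p40phox, which binds the membrane lipid of phagosomes, chr15:78244801-78262580, plus strand) had 2.10 and 1.32 CPM in the CTRL libraries, 3.56 and 5.54 CPM at the end of infusion, 1.73 and 1.29 CPM after 2 weeks of withdrawal, and 1.56 and 2.10 CPM after 3 weeks. The AngII libraries stood above the 6 others, from 24 to 117 counts over all libraries. Ncf4 had the largest log2 fold change of the members tested in AngII vs CTRL, 1.42 ± 0.36 (edgeR FDR = 0.0694).

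Cyba lies on chr8:122424776-122432930 (minus strand). Its level was 11.7 and 13.6 CPM in the CTRL libraries, 13.1 and 23.9 CPM at the end of infusion, 14.1 and 12.4 CPM after 2 weeks of withdrawal, and 7.20 and 9.19 CPM after 3 weeks. The AngII libraries overlapped those of CTRL, and the AngII+3W libraries were below all others. The log2 fold change was 0.55 ± 0.28 in AngII vs CTRL (edgeR FDR = 0.333) and -0.63 ± 0.29 in AngII+3W vs CTRL (FDR = 0.427).

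Of the 8 members tested, 3 (Cybb, Ncf1 and Ncf4) had both AngII libraries above both CTRL libraries, against 24.4% of all genes tested. The same 3 passed an FDR of 0.1 in AngII vs CTRL, where 5.49% of all genes were higher at that threshold. Without replicate 2 of AngII, the log2 fold changes were 0.72 for Cybb, 0.59 for Ncf1 and 1.06 for Ncf4 (edgeR FDR = 0.393, 0.488 and 0.372). Together, Cybb, Cyba, Ncf1 and Ncf4 summed to 39.7 and 39.0 CPM in the CTRL libraries, 56.4 and 93.1 CPM at the end of infusion, 46.6 and 53.2 CPM after 2 weeks of withdrawal, and 28.7 and 41.9 CPM after 3 weeks. In AngII+2W vs CTRL, both libraries of Cybb and Ncf1 were above both of CTRL, and those of Sod2 and Sod3 were below. The share of all genes separated in this way was not counted for that comparison.

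Like Cybb, Ncf1 and Ncf4, the summed macrophage and pan-leukocyte markers were higher in both AngII libraries than in both CTRL libraries. Cyba overlapped CTRL in AngII. The summed level of 8 macrophage markers was 308 to 428 CPM in CTRL, 680 to 1123 CPM in AngII, 488 to 493 CPM in AngII+2W and 249.6 to 419 CPM in AngII+3W. Lyz2 was the largest part of this sum in every library, at 127 and 109 CPM in CTRL and 186 and 247 CPM in AngII+2W. Both AngII+2W libraries were above both CTRL libraries for Lyz2, Adgre1, Csf1r and Cd68. They overlapped CTRL for Mrc1, C1qa and Fcgr1 and were below it for Mertk. None of these markers passed in AngII+2W vs CTRL (edgeR). In AngII vs CTRL, 4 of the 8 rose (Adgre1, Cd68, Mrc1 and Fcgr1, log2 fold changes 1.82, 2.13, 1.71 and 2.03), and Mertk had a log2 fold change of -0.85 (edgeR FDR = 0.111). The 6 pan-leukocyte markers summed to 94.1 to 102 CPM in CTRL and 189 to 298 CPM in AngII, and 3 of them rose (Ptprc, Itgam and Coro1a). Neutrophil markers were low, at 4.78 to 20.2 CPM in sum, with Ly6g at 0 counts in 7 of the 8 libraries. Their sum was highest in replicate 2 of AngII+2W, followed by replicate 2 of AngII (14.6 CPM). The 4 B cell markers summed to 8.61 to 9.16 CPM in CTRL and 5.08 to 7.16 CPM in AngII, where all 4 had a negative log2 fold change. The 5 T cell markers summed to 11.0 to 12.5 CPM in CTRL and 12.1 to 12.9 CPM in AngII. None of the B cell, T cell and neutrophil markers tested passed in AngII vs CTRL (edgeR FDR of 0.05), with median log2 fold changes of -0.50, -0.06 and -0.02. Replicate 2 of AngII, the highest library for Cybb, Cyba, Ncf1 and Ncf4, was also the highest for the macrophage and pan-leukocyte sums. The part of these cells in the oxidase levels was not tested. In bulk tissue, a change in the number of cells of a type and a change in RNA per cell cannot be told apart.

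**Figure D3:**
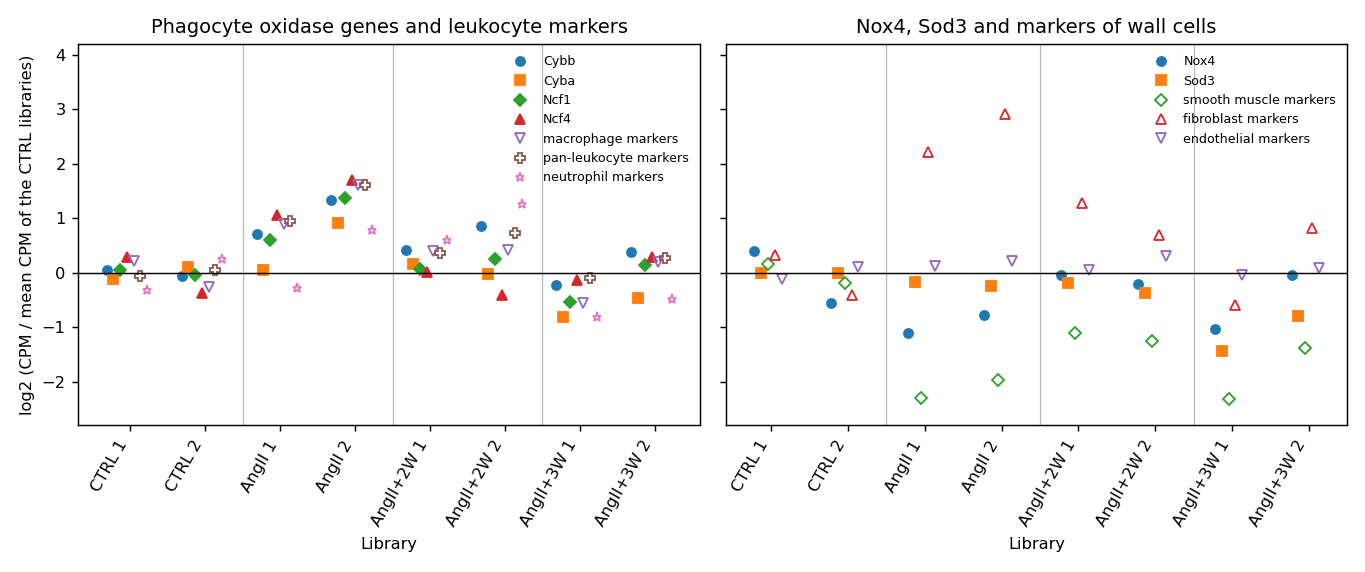
Level in each library (x axis) as log2 of its CPM over the mean CPM of the CTRL libraries (y axis), with filled symbols for single genes and open symbols for summed markers. On the left, the 4 phagocyte oxidase genes lie beside macrophage, pan-leukocyte and neutrophil markers, with AngII replicate 2 the highest for all but the neutrophil sum. On the right, smooth muscle markers are below CTRL in all AngII groups and the fibroblast sum, mostly Col1a1, is highest in AngII. Sod3 is lowest in AngII+3W.

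The sequence just before the RefSeq start is shown for Cybb, Ncf1 and Cyba, so that the phagocyte oxidase genes can be read beside Nox4, a vascular oxidase, and Sod1, whose level varied least among the members. The RefSeq promoter table (GRCm38.p6) held 7 of the 9 members. Each stretch is 150 bases, 5′ to 3′ in the direction of the gene, and capitals mark matches on either strand to the motifs searched. The stretches of Cybb and Nox4 lie within the bounds of the annotated gene and outside its exons, and those of Ncf1, Cyba and Sod1 just before it. The stretch of Sod1 runs from 158 to 9 bases before its RefSeq start, and the others from 150 to 1.
Cybb (chrX:9469325-9469474, minus strand): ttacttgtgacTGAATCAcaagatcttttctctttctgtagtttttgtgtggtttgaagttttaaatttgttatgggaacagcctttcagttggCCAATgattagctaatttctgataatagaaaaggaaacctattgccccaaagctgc
Ncf1 (chr5:134229626-134229775, minus strand): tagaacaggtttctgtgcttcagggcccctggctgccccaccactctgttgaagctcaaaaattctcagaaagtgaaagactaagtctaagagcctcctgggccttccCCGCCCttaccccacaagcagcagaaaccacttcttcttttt
Cyba (chr8:122432941-122433090, minus strand): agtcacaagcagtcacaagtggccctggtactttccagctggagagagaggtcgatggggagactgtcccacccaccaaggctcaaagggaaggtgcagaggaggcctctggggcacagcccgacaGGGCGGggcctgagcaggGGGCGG
Nox4 (chr7:87246499-87246648, plus strand): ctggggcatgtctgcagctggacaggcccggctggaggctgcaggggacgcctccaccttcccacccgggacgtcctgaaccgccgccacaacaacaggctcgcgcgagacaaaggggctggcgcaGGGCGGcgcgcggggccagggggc
Sod1 (chr16:90220604-90220753, plus strand): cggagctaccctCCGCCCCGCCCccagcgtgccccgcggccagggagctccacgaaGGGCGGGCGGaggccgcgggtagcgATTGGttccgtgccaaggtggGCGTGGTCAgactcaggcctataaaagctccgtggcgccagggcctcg
Motifs were searched on both strands in the 250 bases before each start. The PU.1 letters GAGGAAG occurred in 10.6% of 32851 promoters, the AP-1 letters TGANTCA in 6.75%, CCAAT in 33.8%, the GC box GGGCGG in 32.7% and the antioxidant response core TGACNNNGC in 10.2%. Cybb held an AP-1 match 139 bases and a CCAAT box 56 bases before its start and no GC box. Ncf1 held 1 GC box, Cyba 2 and Nox4 1. Sod1 held 4 GC boxes, which overlap in pairs, with a CCAAT box and an antioxidant response core, and Sod2 held 4 GC boxes and a CCAAT box. The PU.1 letters were found in the window of Nox1, and not in those of Cybb, Cyba and Ncf1. The window of Cybb was 34.0% G and C and that of Nox1 38.0%, against a median of 52.4% over all promoters, while those of Nox4 (67.2%), Sod1 (66.4%), Sod2 (63.6%), Cyba (60%) and Ncf1 (54.4%) were above it. Only the letters given were searched, so variants of a motif were not counted. A match is only a run of letters, and neither a match nor its absence says anything on binding in these aortas.

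Nox4 lies on chr7:87246096-87398710 (plus strand) and makes hydrogen peroxide without the cytosolic subunits that Cybb needs. It was measured at 166 and 86.2 CPM in the CTRL libraries, 59.0 and 74.1 CPM at the end of infusion, 123 and 109 CPM after 2 weeks of withdrawal, and 61.6 and 122 CPM after 3 weeks. Both AngII libraries were below both CTRL libraries, but the CTRL libraries were themselves far apart, as were those of AngII+3W. The mean in AngII was 0.527-fold that in CTRL (log2 fold change -0.92 ± 0.38, edgeR FDR = 0.225, 95% interval -1.80 to -0.05). It was -0.37 without replicate 1 of CTRL and -1.33 without replicate 2 (edgeR FDR = 0.667 and 0.151). The log2 fold change was -0.12 ± 0.37 in AngII+2W vs CTRL (edgeR FDR = 0.944) and -0.46 ± 0.38 in AngII+3W vs CTRL (FDR = 0.657). Without replicate 1 of CTRL, these were 0.44 and 0.09, of the opposite sign.

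Nox4 and Sod3 were the 2 members with both AngII libraries below both CTRL libraries, against 24.9% of all genes tested. The ratio of Nox4 to Cybb per base of transcript was 12.8 and 7.12 in the CTRL libraries, 2.86 and 2.33 at the end of infusion, 7.32 and 4.81 after 2 weeks of withdrawal, and 5.69 and 7.47 after 3 weeks. This ratio of levels was lower in both AngII libraries than in the 6 others. Beside it, the 6 smooth muscle markers summed to 7413 to 9472 CPM in CTRL, 1720 to 2167 CPM in AngII, 3537 to 3928 CPM in AngII+2W and 1696 to 3256 CPM in AngII+3W, and 5 of them fell in AngII vs CTRL (Acta2, log2 fold change -2.18, edgeR FDR = 0.0133). Fibroblast markers summed to 1292 to 2140 CPM in CTRL and 7997 to 12941 CPM in AngII. Most of each sum was the collagen gene Col1a1, at 1359 and 828 CPM in CTRL and 6639 and 11178 CPM in AngII. All 6 fibroblast markers had a positive log2 fold change in AngII vs CTRL, and 2 of them rose (Col1a1 and Lum). The part of smooth muscle cells and fibroblasts in the Nox4 levels was not tested.

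Nox1, an oxidase of smooth muscle and gut epithelium, lies on chrX:134086421-134221956 (minus strand), where Arl13a and Cstf2 on the opposite strand and Xkrx on the same strand overlap it. Its counts were 5 and 4 in the CTRL libraries, 3 and 10 at the end of infusion, 8 and 3 after 2 weeks of withdrawal, and 18 and 9 after 3 weeks. These values are close to the floor of 3 counts. In counts, both AngII+3W libraries were above those of CTRL and AngII+2W while AngII overlapped all other groups. In CPM, both AngII+3W libraries (0.968 and 0.484) were also above both AngII libraries (0.162 and 0.474). In a fit of every gene with at least 1 count, the log2 fold change of Nox1 was 0.57 ± 0.82 in AngII vs CTRL, 0.33 ± 0.84 in AngII+2W vs CTRL and 1.72 ± 0.78 in AngII+3W vs CTRL (edgeR FDR = 0.824, 0.993 and 0.514).

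Sod1, the copper and zinc enzyme of the cytosol, lies on chr16:90220754-90226329 (plus strand). It had 237 and 300.2 CPM in the CTRL libraries, 277 and 252 CPM at the end of infusion, 292 and 274 CPM after 2 weeks of withdrawal, and 263 and 262 CPM after 3 weeks. Its highest and lowest libraries were both CTRL libraries, and the ratio of the highest to the lowest was 1.27. The 95% interval of the fold in AngII vs CTRL ran from 0.77 to 1.25 (log2 fold change -0.03 ± 0.15, edgeR FDR = 0.951), and in AngII+3W vs CTRL from 0.766 to 1.25 (FDR = 0.949).

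Sod2, the manganese enzyme of mitochondria, lies on chr17:13006846-13040063 (plus strand). It had 362 and 398 CPM in the CTRL libraries, 484 and 352 CPM at the end of infusion, 333 and 342 CPM after 2 weeks of withdrawal, and 495 and 301 CPM after 3 weeks. The AngII and AngII+3W libraries lay on either side of CTRL, and both AngII+2W libraries were below both CTRL libraries. Replicate 1 of AngII+3W, the library with skeletal muscle markers, had the highest level. The 95% interval of the fold was 0.734 to 1.65 in AngII vs CTRL (edgeR FDR = 0.82) and 0.698 to 1.57 in AngII+3W vs CTRL (FDR = 0.94). In AngII+2W vs CTRL it was 0.592 to 1.33 (edgeR FDR = 0.873).

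Sod3, the secreted enzyme bound to the extracellular matrix, lies on chr5:52363791-52371418 (plus strand). Its level was 262 and 264 CPM in the CTRL libraries, 233 and 221 CPM at the end of infusion, 229 and 203 CPM after 2 weeks of withdrawal, and 97.3 and 151 CPM after 3 weeks. The AngII+3W libraries were below the 6 others, and the CTRL libraries were above the 6 others. The mean in AngII+3W was 0.473-fold that in CTRL (log2 fold change -1.08 ± 0.21, edgeR FDR = 0.0842, 95% interval -1.56 to -0.60). In AngII vs CTRL the log2 fold change was -0.21 ± 0.20 (edgeR FDR = 0.632) and in AngII+2W vs CTRL -0.28 ± 0.20 (FDR = 0.689). Without replicate 1 of AngII+3W the log2 fold change was -0.80 (edgeR FDR = 0.137), and without replicate 2 it was -1.49 (FDR = 0.00872). Beside it, red cell markers summed to 4296 to 4357 CPM in CTRL, 3021 to 3059.6 CPM in AngII, 980.2 to 2559 CPM in AngII+2W and 787 to 1182 CPM in AngII+3W, and none of the 5 passed in AngII+3W vs CTRL (edgeR). In the same comparison, 4 of the 6 smooth muscle markers fell (Acta2, Cnn1, Myl9 and Tagln, edgeR FDR = 0.0455, 0.0462, 0.0357 and 0.0455). The part of these cells in the Sod3 levels was not tested.

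Cyba and Sod3 were the 2 members with both AngII+3W libraries below both CTRL libraries, against 18.3% of all genes. Sod3 alone passed an FDR of 0.1 in AngII+3W vs CTRL, where 1.23% of all genes were lower at that threshold. As a share of the CPM of the 3 dismutases, Sod3 took 30.4% and 27.4% in the CTRL libraries, 23.5% and 26.8% at the end of infusion, 26.8% and 24.7% after 2 weeks of withdrawal, and 11.4% and 21.2% after 3 weeks. The summed level of the dismutases was 861 and 962 CPM in CTRL and 855 and 715 CPM in AngII+3W.

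**Figure D4:**
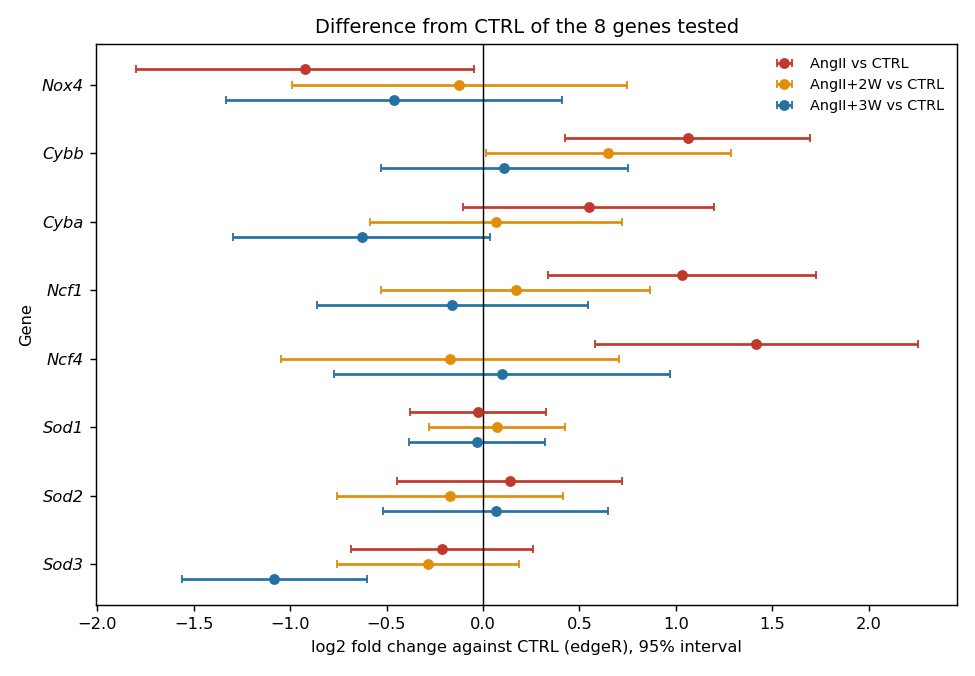
Log2 fold change against CTRL (x axis) of the 8 genes tested (y axis) from edgeR, with 95% intervals as bars and colours for the AngII, AngII+2W and AngII+3W groups. The intervals, which are not adjusted for multiple tests, exclude 0 for Cybb, Ncf1, Ncf4 and Nox4 in AngII, for Cybb in AngII+2W and for Sod3 in AngII+3W, where FDR lay between 0.0694 and 0.457, and include 0 elsewhere.

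After withdrawal the phagocyte genes were compared with the end of the infusion. Set against AngII, 5 of the 8 members tested had both AngII+3W libraries below both AngII libraries (Cybb, Cyba, Ncf1, Ncf4 and Sod3), against 24.2% of all genes. Cyba had a log2 fold change of -1.18 ± 0.29 (edgeR FDR = 0.0926) and Sod3 of -0.87 ± 0.20 (FDR = 0.0849), and these 2 passed an FDR of 0.1, where 3.4% of all genes were lower. For Cybb it was -0.95 ± 0.27, for Ncf1 -1.19 ± 0.30 and for Ncf4 -1.32 ± 0.36 (edgeR FDR = 0.135, 0.101 and 0.124). Without replicate 1 of AngII+3W, the log2 fold changes were -1.01 for Cyba, -0.58 for Sod3, -0.68 for Cybb, -0.89 for Ncf1 and -1.11 for Ncf4 (edgeR FDR = 0.275, 0.186, 0.375, 0.289 and 0.341).

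Ncf1, Ncf4 and Sod2 had both AngII+2W libraries below both AngII libraries, which is 3 of 8 against 27.5% of all genes. Ncf4 had the largest difference (AngII+2W vs AngII, log2 fold change -1.59 ± 0.37, edgeR FDR = 0.108), while Cybb had -0.41 ± 0.27 (FDR = 0.546). Nox4 had a log2 fold change of 0.80 ± 0.38 in this comparison (edgeR FDR = 0.376). Between AngII+3W and AngII+2W the smallest FDR was that of Sod3, with a log2 fold change of -0.80 ± 0.20 (edgeR FDR = 0.391).

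The partners of the oxidases did not pass the test either, in any of the 6 comparisons. Of 11 genes in this list, 8 were tested, and in AngII vs CTRL 7 had a positive and 1 a negative log2 fold change, with a median of 0.63 against -0.01 for all genes. Rac2, the small GTPase of the leukocyte oxidase, had 8.62 and 8.23 CPM in CTRL and 11.3 and 17.1 CPM in AngII (log2 fold change 0.75, edgeR FDR = 0.113). Like Cybb and Ncf1, it was highest in replicate 2 of AngII. Rac1, its widely expressed relative, had log2 fold changes of 0.20 in AngII vs CTRL and -0.03 in AngII+3W vs CTRL (edgeR FDR = 0.424 and 0.943).

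Cybc1, the chaperone that brings gp91phox to maturity, had 13.9 and 13.1 CPM in CTRL, 18.5 and 20.04 CPM in AngII, and 9.94 and 12.6 CPM in AngII+3W. Its log2 fold change was 0.51 in AngII vs CTRL (edgeR FDR = 0.122) and -0.77 in AngII+3W vs AngII (FDR = 0.0672), which was -0.60 without replicate 1 of AngII+3W (FDR = 0.214). Noxo1, the organizer of NOX1, was at 4.38 and 3.999 CPM in CTRL and 1.94 and 1.90 CPM in AngII (log2 fold change -1.12, edgeR FDR = 0.115), the opposite sign to Ncf1, the organizer of NOX2. Poldip2, a partner of NOX4, had a log2 fold change of 0.10 (edgeR FDR = 0.731). Of the dual oxidases, which make hydrogen peroxide in epithelia, Duox1 had 0.633 and 0.517 CPM in CTRL and 1.19 and 1.66 CPM in AngII (log2 fold change 1.30, edgeR FDR = 0.103). Duox2 had 0.585 and 0.565 CPM in CTRL and 0.972 and 2.23 CPM in AngII (1.48, edgeR FDR = 0.249). Duoxa1, which brings DUOX1 to maturity, had 4 and 1 counts in CTRL and 19 counts in each AngII library (log2 fold change 2.94, edgeR FDR = 0.0519). All 3 were above both CTRL libraries in both AngII libraries, at low counts, against 24.4% of all genes tested. They were named after their values were seen. Noxa1, the activator of NOX1, had 0 to 2 counts, Duoxa2 had 0 to 4 counts and Nox3 had 0 counts in all 8 libraries, so they were not tested.

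Among the gene lists around the oxidases and dismutases, only that for peroxide removal held genes that passed. In AngII vs CTRL, 2 of 18 genes for peroxide removal rose and none fell, against 5.1% of all genes called in either direction. Gpx7, a peroxidase of the endoplasmic reticulum, was at 7.89 and 5.69 CPM in the CTRL libraries, 13.0 and 16.2 CPM at the end of infusion, 8.68 and 6.23 CPM after 2 weeks of withdrawal, and 4.62 and 5.43 CPM after 3 weeks. It rose in AngII vs CTRL (log2 fold change 1.10 ± 0.25, edgeR FDR = 0.0484) and fell in AngII+3W vs AngII (-1.53 ± 0.25, FDR = 0.0391), as 1 of the 18 genes against 1.61% of all genes. Gpx8, a related enzyme of the same compartment, was at 42.1 and 35.9 CPM in CTRL and 64.4 and 85.4 CPM in AngII and rose (log2 fold change 0.94 ± 0.19, edgeR FDR = 0.0365). The median log2 fold change of the 18 genes in AngII vs CTRL was 0.08. Leaving out either AngII, CTRL or AngII+2W library ended both calls in AngII vs CTRL, with log2 fold changes of 0.87 to 1.35 for Gpx7 and 0.72 to 1.13 for Gpx8 over all libraries left out. That of Gpx7 in AngII+3W vs AngII ranged from -1.72 to -1.37 and its call was kept only without replicate 2 of AngII+3W (-1.42 without replicate 1, edgeR FDR = 0.127). The call of Gpx7 in AngII vs CTRL was also lost with DESeq2 size factors, library totals and a replicate block (FDR = 0.0511, 0.0577 and 0.0618), and that in AngII+3W vs AngII with the block and with only the 2 groups compared (0.0539 and 0.121).

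Of the 4 genes that supply copper to Sod1 and Sod3, none passed in any comparison. In AngII vs CTRL, the copper importer Slc31a1 had a log2 fold change of 0.63 and the copper chaperone Atox1 of 0.49 (edgeR FDR = 0.057 and 0.0681), while Ccs, which loads copper into Sod1, had -0.12 (FDR = 0.762). None of 10 genes of NRF2 and its targets passed in any comparison. Hmox1, which degrades heme, had the largest log2 fold change of them in AngII vs CTRL, 2.97 (edgeR FDR = 0.0693), with 7.55 and 5.88 CPM in CTRL and 13.2 and 91.7 CPM in AngII, with replicate 2 far above replicate 1. Outside the oxidases, none of 5 oxidant sources tested (Xdh, Nos3, Maoa, Maob and Aox1) passed in any comparison.

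**Figure D5:**
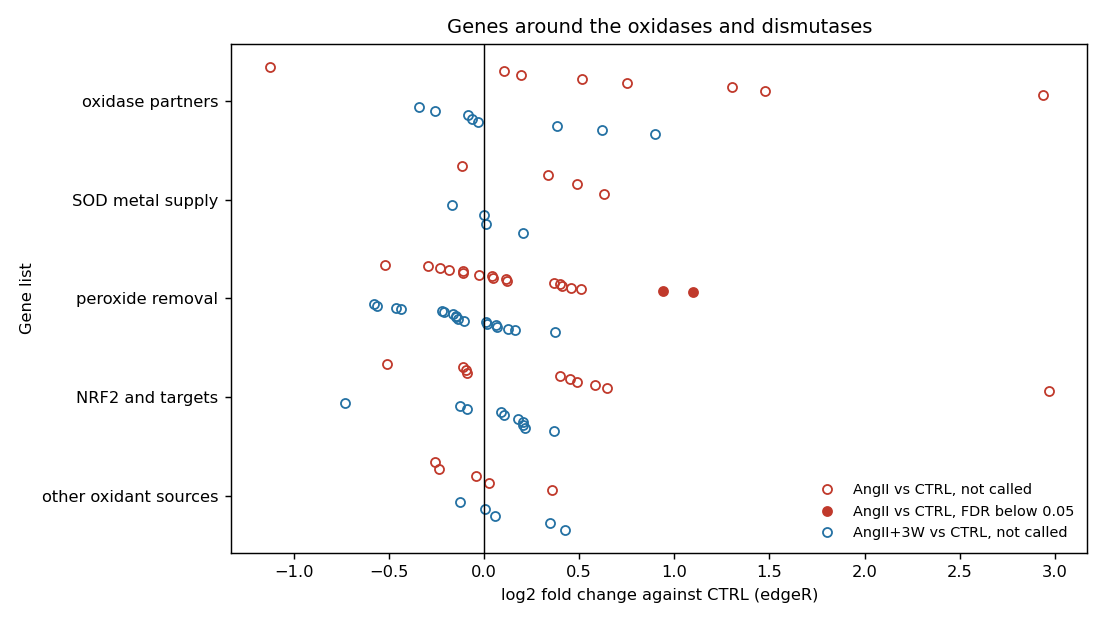
Log2 fold change against CTRL from edgeR (x axis) for the genes of 5 lists around the oxidases and dismutases (y axis), in AngII and in AngII+3W. Filled points passed an FDR of 0.05, which holds for Gpx7 (1.10) and Gpx8 (0.94) in AngII vs CTRL, and open points did not.

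The genes whose levels followed Cybb, Nox4 and Sod3 most closely across the 8 libraries were found by the root mean square difference of log2 CPM, each gene centred on its own mean. For Cybb, whose own spread around its mean was 0.48, they were Dock2 at 0.128, Rassf5 at 0.139 and Nlrp3 at 0.147. For Nox4, with a spread of 0.50, they were Scn2a at 0.134, Nalcn at 0.156 and Gpr161 at 0.194. For Sod3, with a spread of 0.46, they were Slc1a4 at 0.0819, Tagln2 at 0.149 and Rnd2 at 0.151. Slc1a4 went from a mean of 12.3 CPM in CTRL to 6.31 CPM in AngII+3W, and the mean of Dock2 was 22.8 CPM in CTRL and 46.1 CPM at the end of infusion. These genes were picked from 17182 for their likeness, which carries no test.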

How the data were processed

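RNA of aortic tissue was measured in 8 libraries. The authors depleted ribosomal RNA, sequenced all libraries in 1 lane, estimated transcript abundance with Salmon on Ensembl cDNA of GRCm38 in the ARMOR workflow and imported it with tximeta. The deposited table holds these expected counts per gene without normalization, and transcript lengths are not part of it. The counts were rounded to whole numbers before the tests. Libraries were assigned to groups and replicate numbers from their labels. The members and gene lists were chosen with earlier results of these data known.

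The differential expression test was that of edgeR 4.0.16 (R 4.3.3), after filterByExpr had kept 17182 genes and with TMM normalization. The quasi-likelihood F test was run on all 8 libraries with 1 coefficient per group (4 residual degrees of freedom). Two-sided p-values received the Benjamini-Hochberg adjustment (FDR), with a threshold of 0.05. A threshold of 0.1 was added after seeing the data. SE is the absolute log2 fold change divided by the square root of F, and CPM uses TMM-normalized library sizes. With 2 libraries in each arm, the smallest p of an exact permutation test is 0.333, so none was made.

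Text names the 9 members, the partners Rac1, Rac2, Noxo1, Noxa1, Cybc1 and Poldip2, the genes of other lists that passed (at most 5 per list), and 3 nearest genes for Cybb, Nox4 and Sod3. Outside this rule are Hmox1, Slc31a1, Atox1, Ccs, Nox3, Duox1, Duox2, Duoxa1, Duoxa2 and the other oxidant sources, named after their values were seen. A partner that the rule includes is not reported here. Positions and principal transcripts are from GENCODE M21. No annotated transcript outside the gene matched a member at 90% identity over 20% of its length (BLAST 2.17.0). Cyba, Ncf1 and Sod1 overlap a gene on the opposite strand, and the use of strand in the counting is not given in the sources used here, so that their reads may include those of the other gene. Alternatives were DESeq2 size factors, library totals, every gene with at least 1 count, DESeq2 1.42.0, a replicate block, only the 2 groups compared, and leaving out each library. Same-numbered replicates come from different mice.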

Additional observations from a re-analysis of the deposited data

Results flagged for a closer look

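Effects against CTRL that differed between 2 time points by the direct edgeR test were found for Gpx7 and 3 cell type markers, and for none of the 8 members tested. Gpx7 was lower in AngII+3W than in AngII (log2 fold change -1.53, edgeR FDR = 0.0391), a call that was lost with a replicate block (0.0539), with only the 2 groups compared (0.121) and without replicate 1 of AngII+3W (-1.42, FDR = 0.127). Lower too were Cd68 of macrophages (-2.14), Lum of fibroblasts (-2.40) and the pan-leukocyte marker Itgam (-1.68), which was higher in both AngII+2W libraries and lower in both AngII+3W libraries than in both CTRL libraries (log2 fold change -1.26 between these groups, for which the difference did not pass the test). Without replicate 1 of AngII+3W, the log2 fold changes in AngII+3W vs AngII were -1.79 for Cd68, -1.97 for Lum and -1.53 for Itgam (edgeR FDR = 0.116, 0.0938 and 0.104). Causes of these differences were not tested.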

How the results depend on the processing

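Among the log2 fold changes of members under the alternatives, 622 kept their direction and their side of the threshold, 23 passed it and 27 had another sign. Where a library was left out, the other library of its group was assumed to vary like the other groups. The causes of the differences between settings were not tested.

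In AngII vs CTRL, 1 member (Cybb) passed with every gene with at least 1 count (FDR = 0.0432), with the replicate block (0.041) and with only the 2 groups compared (0.0377), and 3 passed with DESeq2 (Cybb, Ncf1 and Ncf4, adjusted p = 0.00588, 0.0244 and 0.0429) or at an FDR of 0.1. Leaving out each library gave 0 to 1, with Cybb passing without replicate 1 or replicate 2 of AngII+3W (0.0362 and 0.0357). In AngII+3W vs CTRL, 1 member (Sod3) passed with every gene with at least 1 count (0.0405), DESeq2 (6.73e-05) or an FDR of 0.1, and 0 to 1 when each library was left out (without replicate 2 of AngII+3W). In AngII+2W vs AngII, DESeq2 called 1 (Ncf4) and the fit of 2 groups 2 (Nox4 and Ncf4). In AngII+3W vs AngII, DESeq2 called 4 (Cyba, Cybb, Ncf1 and Sod3), an FDR of 0.1 gave 2, and leaving out each library 0 to 3 (Cybb, Ncf1 and Sod3 without replicate 2 of AngII+3W, FDR = 0.0494, 0.0381 and 0.0116). In AngII+3W vs AngII+2W, DESeq2 called 1 (Sod3) and leaving out each library gave 0 to 1 (Sod3 without replicate 2 of AngII+3W, 0.0136).

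The number of genes called over the whole table, 877 in AngII vs CTRL, was 1592 with DESeq2 and 0 to 1504 when each library was left out. In AngII+2W vs CTRL it was 0, and 5 with every gene with at least 1 count, 373 with DESeq2 and 0 to 275 with libraries left out. In AngII+3W vs CTRL it was 49, and 1 with library totals, 200 with every gene with at least 1 count, 587 with DESeq2, 4 with the replicate block, 0 with only 2 groups and 0 to 463 with libraries left out. In AngII+2W vs AngII it was 28, and 18, 242, 685 and 884 with library totals, every gene, DESeq2 and only 2 groups, and 0 to 262 with libraries left out. In AngII+3W vs AngII it was 276, and 179, 522, 948 and 0 under the same settings and 3 to 1005 with libraries left out. In AngII+3W vs AngII+2W it was 0, and 11 with every gene, 216 with DESeq2, 2 with the replicate block and 0 to 432 with libraries left out.

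The replicate block changed no other call of a member, and ended those of Gpx7 (FDR = 0.0618 in AngII vs CTRL and 0.0539 in AngII+3W vs AngII). It kept that of Gpx8 (0.0463). DESeq2 size factors and library totals also ended the call of Gpx7 in AngII vs CTRL (0.0511 and 0.0577), and only the 2 groups compared that in AngII+3W vs AngII (0.121). Correlations of replicate differences between groups ran from -0.0445 to 0.248, so the numbers were not taken as pairs.

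Signs turned for small log2 fold changes. Sod1 in AngII vs CTRL was 0.0021 with library totals. Over the fits with a library left out, AngII vs CTRL ranged from -0.18 to 0.15 for Sod1 and -0.11 to 0.35 for Sod2. AngII+2W vs CTRL ranged from -0.52 to 0.44 for Nox4, -0.041 to 0.18 for Cyba, -0.47 to 0.21 for Ncf4 and -0.076 to 0.255 for Sod1. AngII+3W vs CTRL ranged from -1.09 to 0.095 for Nox4, -0.27 to 0.37 for Cybb, -0.59 to 0.14 for Ncf1, -0.21 to 0.47 for Ncf4, -0.20 to 0.13 for Sod1 and -0.34 to 0.33 for Sod2. AngII+2W vs AngII ranged from -0.86 to 0.028 for Cyba and -0.17 to 0.014 for Sod3. AngII+3W vs AngII ranged from -0.16 to 0.88 for Nox4, -0.084 to 0.027 for Sod1 and -0.46 to 0.20 for Sod2. AngII+3W vs AngII+2W ranged from -0.96 to 0.073 for Nox4, -0.0041 to 0.48 for Ncf4 and -0.17 to 0.51 for Sod2.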
